A study of Mus musculus with 77 samples.

Results

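Ftl1 and Fth1, which encode the light and heavy chains of ferritin, and Tfrc, which encodes the transferrin receptor, were followed liver by liver in 24 mice. They are 3 of the 25266 genes in the count files, and all 3 were among the 10696 genes that passed the filter on low counts. They were chosen by how ferritin translation and Tfrc RNA co-varied between single livers of the same group in these data. That co-variation is therefore given below as a description, without a test. In the mouse genome build GRCm38.p6, Ftl1 (ENSMUSG00000050708) lies at chr7:45457944-45459886, Fth1 (ENSMUSG00000024661) at chr19:9980600-9985111 and Tfrc (ENSMUSG00000022797) at chr16:32608896-32632794.

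Ferritin is a hollow shell of light and heavy chains that stores iron in the cell, and the transferrin receptor brings transferrin-bound iron into the cell. Their mRNAs carry iron-responsive elements (IREs), hairpins bound by the iron regulatory proteins IRP1 and IRP2 when free iron is scarce. In Ftl1 and Fth1 the IRE lies in the 5′ UTR, where a bound IRP keeps ribosomes off the coding sequence (CDS). In Tfrc the IREs lie in the 3′ UTR, where a bound IRP protects the mRNA from cleavage. The same binding thus acts on translation of the ferritin mRNAs and on the amount of Tfrc mRNA, in opposite directions, and the liver is a main store of the body's iron.

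The livers came from adult male mice, 12 to 24 weeks old, on a C57BL/6J background, kept in light-dark cycles with food at all times. Mice lacked IRP1 throughout the body (Aco1-/-, allele Aco1 tm1.1Mwh) or IRP2 (Ireb2-/-, allele Ireb2 tm1.2Mwh), and each line had its own controls (Aco1+/+ and Ireb2+/+). Livers were taken 5 h after lights on (ZT5) or at lights off (ZT12), 3 mice for each genotype and timepoint, so that there were 8 groups. Each liver gave 1 library of ribosome-protected fragments (RPFs, the pieces of mRNA shielded by translating ribosomes) and 1 library of total RNA. Translation efficiency (TE) is the RPF level of a gene divided by its RNA level in the same liver, each as CDS counts in CPM, that is, scaled to the same library total after correction by the upper quartile, and it is given as log2. All livers are bulk tissue, so fewer cells of a type and less RNA per cell cannot be told apart.

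CDS counts per library lay between 852293 and 3993492 in RNA and between 2448915 and 13439600 in RPF. Tfrc had only 14 to 185 CDS counts in an RNA library, against 258 to 1405 for Ftl1 and 655 to 4095 for Fth1, so its RNA level carries the largest counting error of the 3. The targeted genes went with their labels, since RPF levels of Aco1 fell by 2.36 at ZT5 and by 2.35 at ZT12 on the log2 scale in Aco1-/- livers (edgeR adjusted p = 7.07e-08 and 6.09e-08). RPF levels of Ireb2 fell by 1.00 and by 0.98 in Ireb2-/- livers (edgeR adjusted p = 0.00294 and 0.00278). The 6 hepatocyte markers (Alb, Apoa1, Ttr, Apob, Cps1 and Hnf4a) had counts in all 24 RNA libraries. The RNA library of Ireb2+/+ replicate 3 at ZT5 stood apart from the others. Mitochondrial genes held 0.947% of its CDS counts and at least 3.07% in the other RNA libraries, its 3′ UTR share was 17.3% against at least 22.1%, and its mean rank correlation with other RNA libraries was 0.926 against at least 0.942. Of its Fth1 RNA counts, 30.6% lay in the 5′ UTR, against 2.04 to 8.27% elsewhere. Its RPF library had a mean rank correlation of 0.960, where the lowest was 0.957. The 5′ UTR share of that library was 1.20%, the lowest of the RPF libraries, which reached 3.19%. Where leaving out this liver moved a value far, the value without it is given beside.

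Ftl1, the light chain, promotes the formation of the iron core. At ZT5 its log2 TE was −2.47, −0.76 and −1.59 in Aco1+/+ replicates 1, 2 and 3, and −0.94, −1.08 and −0.90 in Aco1-/- livers. The control livers thus spread on both sides of the knockout livers, which lay close together. At ZT12 it was −4.08, −3.00 and −2.58 in Aco1+/+ and −4.29, −1.93 and −2.98 in Aco1-/-, and the lowest value of all 24 livers was that of Aco1-/- replicate 1. In the Ireb2 line at ZT5, log2 TE of Ftl1 was −1.62, −0.89 and −3.84 in Ireb2+/+ and 0.15, 0.41 and 0.32 in Ireb2-/-. These 3 knockout livers were the highest of the 24, and the lowest of their controls was the liver whose RNA library stood apart. At ZT12 the values were −2.46, −1.55 and −3.23 in Ireb2+/+ and −1.18, −2.34 and −2.24 in Ireb2-/-, and the groups overlapped. On the linear scale, mean TE of Ftl1 was highest in Ireb2-/- at ZT5, at 1.23 ± 0.11 (SD, n = 3), and lowest in Aco1+/+ at ZT12, at 0.117 ± 0.055 (SD, n = 3).

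Fth1, the heavy chain, carries the ferroxidase activity that oxidises iron for storage. At ZT5 its log2 TE was −0.87, −0.28 and −0.38 in Aco1+/+ and −0.27, 0.34 and −0.18 in Aco1-/-. Every knockout liver lay above every control liver, the closest by a small margin. At ZT12 it was −3.54, −2.18 and −2.03 in Aco1+/+ and −2.05, −1.21 and −0.19 in Aco1-/-, where the lowest knockout liver was level with the highest control liver. In the Ireb2 line at ZT5 it was −0.68, −0.49 and −1.91 in Ireb2+/+ and 0.47, 0.60 and 0.50 in Ireb2-/-, without overlap. At ZT12 it was −1.56, −1.20 and −2.32 in Ireb2+/+ and −0.58, −1.41 and −1.47 in Ireb2-/-, with overlap. As for Ftl1, the Ireb2-/- livers at ZT5 were the highest of all, with a mean TE of 1.44 ± 0.07 (SD, n = 3) on the linear scale. The group mean was lowest in Aco1+/+ livers at ZT12, at 0.184 ± 0.085 (SD, n = 3).

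Ferritin footprints varied more than ferritin RNA. RPF levels of Ftl1 ran from 14.0 to 268.4 CPM over the 24 livers and those of Fth1 from 97.2 to 1367 CPM. RNA levels of Ftl1 stayed between 162.9 and 382.5 CPM, a 2.35-fold range, and those of Fth1 between 541.5 and 1131 CPM, a 2.09-fold range. TE spanned 26.0-fold for Ftl1 and 17.6-fold for Fth1, where RPF spanned 19.1-fold and 14.0-fold. Within groups, livers with more Ftl1 RNA had lower Ftl1 TE (r = −0.59, rho = −0.64, and r = −0.34 without the deviating liver), and these values share the RNA library.

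Tfrc RNA at ZT5 was 14.9, 16.3 and 12.7 CPM in Aco1+/+ replicates 1, 2 and 3, and 8.82, 7.30 and 9.88 CPM in Aco1-/- livers. All 3 knockout livers were below all 3 control livers. At ZT12 it was 60, 40.2 and 38.7 CPM in Aco1+/+ and 58.0, 16.2 and 10.1 CPM in Aco1-/-. The knockout liver with the high value, replicate 1, was also the one with the lowest Ftl1 TE, and the other two were below all controls. In the Ireb2 line at ZT5 it was 13.5, 8.59 and 30.0 CPM in Ireb2+/+ and 12.4, 11.3 and 11.5 CPM in Ireb2-/-. The knockout livers lay within the spread of the controls, of which the liver at 30.0 CPM is the one with the deviating RNA library. At ZT12 it was 30.1, 20.4 and 50.9 CPM in Ireb2+/+ and 35.3, 47.9 and 68.1 CPM in Ireb2-/-, and the groups overlapped. Over all livers Tfrc RNA spanned 9.20-fold, from 7.30 to 68.1 CPM.

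RPF levels of Tfrc ran from 6.95 CPM in Aco1-/- replicate 3 at ZT5 to 98.9 CPM in Ireb2-/- replicate 3 at ZT12, and TE of Tfrc spanned 2.59-fold. The plot of values in each liver shows the ferritins and Tfrc side by side.

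**Figure D1:**
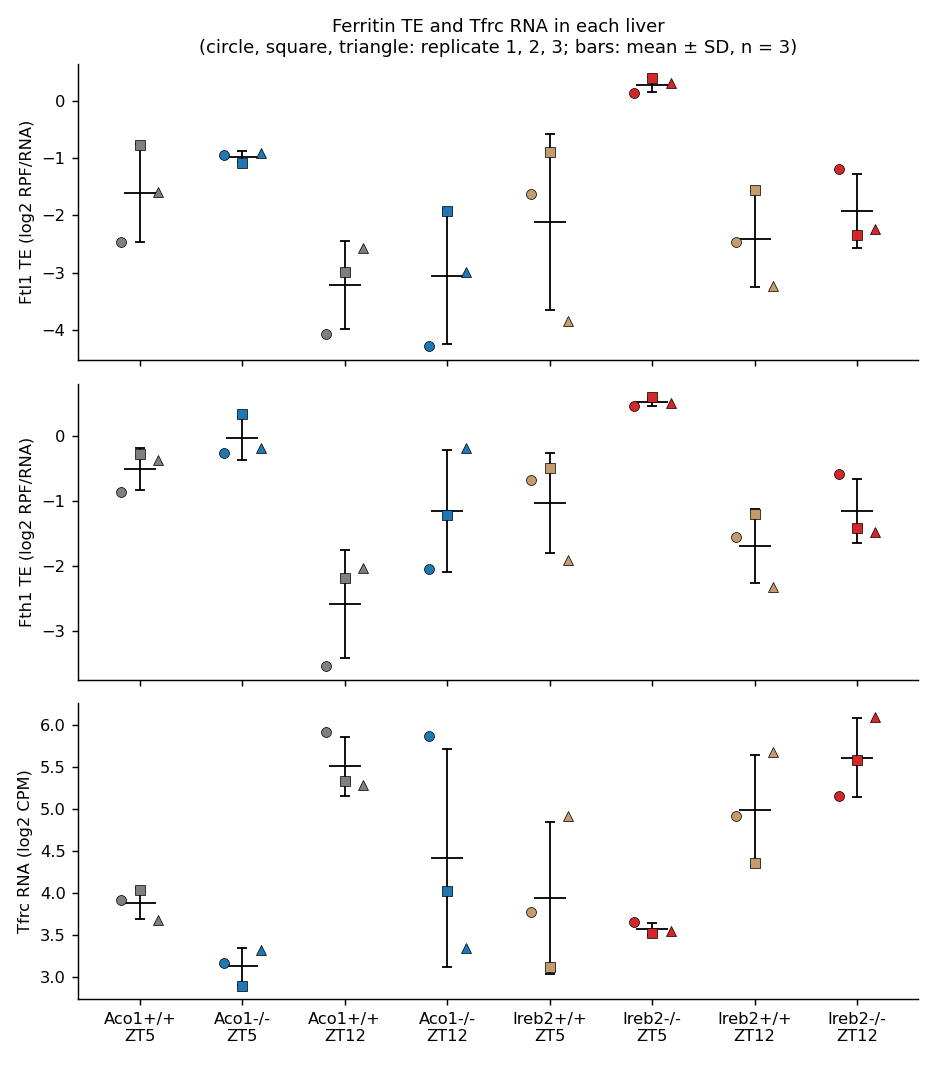
Log2 TE of Ftl1 (top) and Fth1 (middle) and log2 CPM of Tfrc RNA (bottom) in each of 24 livers, by genotype and time; circle, square and triangle are replicates 1, 2 and 3, and bars are the mean ± SD of 3 livers. Groups at ZT12 sit lower than their ZT5 groups in the upper panels and higher in the bottom panel. Livers that are low in the upper panels tend to be high in the bottom one, such as Ireb2+/+ ZT5 replicate 3, whose RNA library stood apart.

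Livers of the same group still differed in all 3 genes. For Ftl1 TE, time accounted for 36.3% of the variance over the 24 livers, genotype for 23.8%, their interaction for 8.70% and differences within groups for 31.2%. For Fth1 TE the shares were 45.2, 24.8, 6.81 and 23.1%, and for Tfrc RNA 55.8, 12.9, 3.45 and 27.9%. Within a group, the 3 livers differed by as much as 7.76-fold in Ftl1 TE (Ireb2+/+ at ZT5), 3.65-fold in Fth1 TE and 5.70-fold in Tfrc RNA (both in Aco1-/- at ZT12). Without the deviating liver the Ireb2+/+ livers at ZT5 differed by 1.66-fold in Ftl1 TE, the widest group was Aco1-/- at ZT12, at 5.14-fold, and differences within groups accounted for 22.3% of the variance of Ftl1 TE, 19.3% of that of Fth1 TE and 22.2% of that of Tfrc RNA. The Ireb2-/- livers at ZT5 were the tightest group in Fth1 TE (1.09-fold) and Tfrc RNA (1.10-fold), and the Aco1-/- livers at ZT5 in Ftl1 TE (1.13-fold).

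Within groups, livers with more Tfrc RNA had less ferritin translation. Each value was expressed as its deviation from the mean of its group, which removes genotype and time, and ferritin TE is the mean of the log2 TE of Ftl1 and Fth1. Over the 24 livers, which carry 16 degrees of freedom within groups, ferritin TE and Tfrc RNA had a Pearson r of −0.86 and a Spearman rho of −0.85. Tfrc RNA that was 2-fold higher (1 log2 unit) went with ferritin TE lower by 0.93 ± 0.14 (SE of the slope) on the log2 scale. For the single genes r was −0.77 for Ftl1 TE (rho = −0.73) and −0.88 for Fth1 TE (rho = −0.87). The ferritin chains also moved together, with r = 0.79 between Ftl1 TE and Fth1 TE (rho = 0.78).

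Without Ireb2+/+ replicate 3 at ZT5, r of ferritin TE with Tfrc RNA was −0.82 (rho = −0.83) over 23 livers. Leaving out the livers farthest on the Tfrc axis, Aco1-/- replicates 1 and 3 at ZT12, gave r = −0.87 over 22 livers. With 12 livers each, the value was −0.89 at ZT12 (rho = −0.89), −0.88 in control livers, −0.92 in knockout livers, −0.77 in the Aco1 line and −0.96 in the Ireb2 line. Without that liver it was −0.77 in control livers and −0.94 in the Ireb2 line. At ZT5 it was −0.84 (rho = −0.63), and this rested on the deviating liver, since r was −0.28 (rho = −0.52) over the other 11 ZT5 livers, −0.14 for Ftl1 TE and −0.47 for Fth1 TE. Differences between these subsets were not tested.

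The orders within single groups show where the relation held and where it did not. Of the 24 pairs of livers that share a group, 19 stood in opposite order in ferritin TE and Tfrc RNA, 17 for Ftl1 alone and 21 for Fth1 alone. The liver with the most Tfrc RNA had the lowest ferritin TE in 5 of 8 groups. Aco1-/- livers at ZT12 are a case where it held, since replicate 1 had 58.0 CPM of Tfrc RNA and a mean ferritin log2 TE of −3.17, whereas replicates 2 and 3 had 16.2 and 10.1 CPM and −1.57 and −1.59. The RNA library of this replicate 1 was the smallest of all, with 852293 CDS counts against 2985284 and 3262313 in replicates 2 and 3. Its RPF library had the lowest mean rank correlation with the other RPF libraries (0.957). In Aco1+/+ livers at ZT5, by contrast, replicate 2 had both the most Tfrc RNA (16.3 CPM) and the highest ferritin log2 TE (−0.52).

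**Figure D2:**
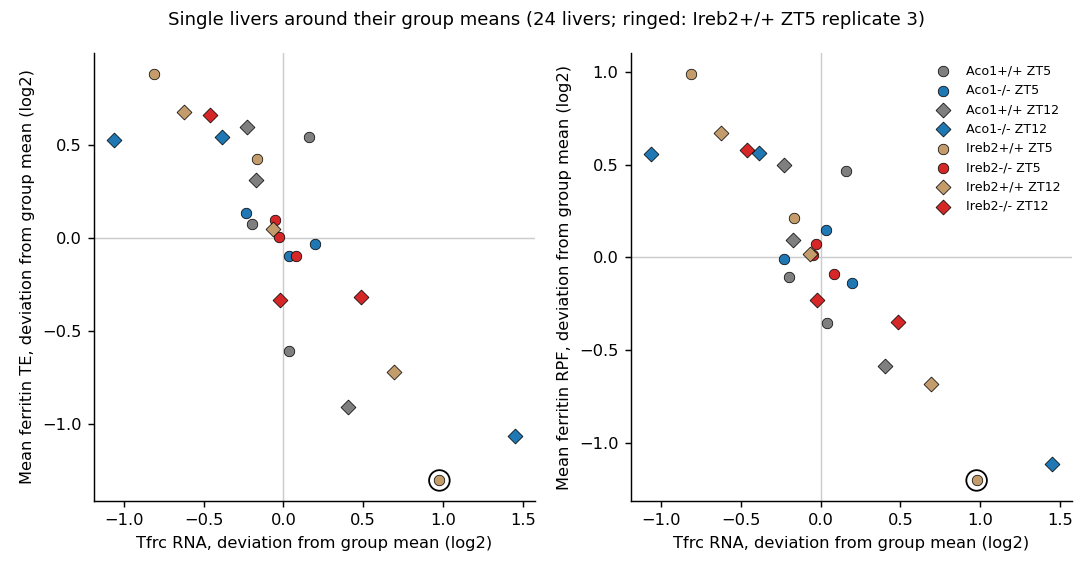
Deviation of each of 24 livers from its group mean (log2), with Tfrc RNA on the x axis and mean ferritin TE (left) or mean ferritin RPF (right) on the y axis; colours and symbols give the group, and the ring marks Ireb2+/+ ZT5 replicate 3. Points run from the upper left to the lower right in both panels (r = −0.86 and −0.90), with Aco1-/- ZT12 replicate 1 and the ringed liver at the lower right.

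TE and Tfrc RNA share the RNA library of a liver, and ferritin RPF and Tfrc RNA do not. Ferritin RPF and Tfrc RNA, measured in separate libraries of the same liver, had r = −0.90 (rho = −0.84), and −0.87 without the deviating liver. Ferritin RPF and Tfrc RPF, which share the RPF library, had r = −0.87 (rho = −0.85), and −0.72 without the pair of livers farthest on the Tfrc axis. Mean RNA of the ferritins had r = 0.12 with Tfrc RNA (rho = 0.23), and 0.05 without the deviating liver. Taken singly, Ftl1 RNA had r = 0.17 with Tfrc RNA and Fth1 RNA −0.03, and without that liver the signs turned, to −0.17 and 0.28. At ZT5 these values were 0.65 and −0.62 with it and −0.19 and −0.09 without it, and at ZT12 they were −0.19 and 0.41. Over the 11 ZT5 livers other than the deviating one, these relations were weaker, at −0.38 for ferritin RPF with Tfrc RNA (−0.86 with it) and −0.35 for ferritin RPF with Tfrc RPF (−0.81 with it), while at ZT12 they were −0.94 and −0.92. Tfrc RPF and Tfrc RNA had r = 0.87 (rho = 0.81) over all livers and 0.95 at ZT12, but −0.03 (rho = −0.07) over those 11 ZT5 livers. TE of Tfrc had r = −0.20 with Tfrc RNA over all livers, −0.58 over those 11 and −0.50 in the Aco1 line, and −0.07 with ferritin TE. Relations between group means were of the same sign, with r = −0.75 and rho = −0.71 over the 8 groups and a slope of −0.85.

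Other columns of the count files bear on the untranslated regions that hold the IREs. They carry no names in the files and were read from their values as 5′ UTR and 3′ UTR. Counts of Tfrc RNA in the 3′ UTR went with those in the CDS (r = 0.77, rho = 0.75), and their r with ferritin TE was −0.68 (rho = −0.63). Over the 11 ZT5 livers these values were 0.11 and −0.26. Footprints in the 5′ UTR of Ftl1 were also lower where Tfrc RNA was higher (r = −0.70, rho = −0.70, and r = −0.60 without the deviating liver). For those of Fth1 r was −0.15 (rho = −0.26), and it depended on which livers entered, with 0.05 without the deviating liver, −0.43 without Aco1-/- replicate 3 at ZT12, −0.82 in control livers (−0.62 without the deviating one) and 0.23 in knockout livers.

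Other genes with the most similar pattern were sought among 2688 genes with a mean of at least 100 CDS counts in both assays. TE of Slc40a1, the iron exporter ferroportin, was the closest to ferritin TE (r = 0.81, and 0.87 without the deviating liver), followed by Alas2, which makes the first intermediate of heme (r = 0.77 with and without it). Both have a 5′ IRE. The next were Ndufa8, a subunit of mitochondrial complex I (r = 0.77), Prodh2, a hydroxyproline dehydrogenase (r = 0.74), and Map2k2, a kinase of the MAPK cascade (r = 0.72), and without that liver these came to 0.65, 0.59 and 0.62. Kmo (kynurenine 3-monooxygenase) was the most opposite (r = −0.79), and Pdk1, a kinase of pyruvate dehydrogenase, was among the 3 most opposite (r = −0.77). In RNA, Hes6, Golga3, Mlec and Ang were among the 5 genes closest to Tfrc, at r = 0.73 to 0.70. Slc40a1 RNA was the most opposite to Tfrc RNA (r = −0.86, and −0.82 without the deviating liver), with Osbpl1a and Daam1 next at −0.74.

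The remaining IRE genes of a list of 5 varied. TE of Epas1 (the hypoxia factor HIF2α), with a 5′ IRE, had r = 0.57 with ferritin TE, and 0.44 without the deviating liver. Slc11a2, the iron importer DMT1 with a 3′ IRE, had r = 0.62 between its RNA and Tfrc RNA, on a mean of 41.5 RNA counts a library. Among 12 other genes of iron handling, r of TE with ferritin TE lay between −0.56, for the hormone hepcidin (Hamp), and 0.51, for the iron chaperone Pcbp1. Without the deviating liver Hamp was at −0.62 and Pcbp1 at 0.10. For Aco1 and Ireb2, which encode the IRPs, and Fbxl5, a ubiquitin ligase subunit that marks IRP2 for degradation, r of TE lay between −0.49 and −0.04, and without it between −0.16 and 0.00433.

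Several properties of the libraries moved with these values. RNA libraries with more CDS counts had higher ferritin TE (r = 0.66) and lower Tfrc RNA (r = −0.65) within groups. With log2 library size taken out of both, r of ferritin TE with Tfrc RNA was −0.75. The 5′ UTR share of RNA counts had r = 0.67 with ferritin TE and −0.51 with Tfrc RNA (0.47 and −0.30 without the deviating liver), and r was −0.81 with it taken out. Erythroid markers, globin genes among them, are genes of cells that also make much transferrin receptor (5 of 7 listed, 3 with counts in all 24 RNA libraries). Their summed RNA had r = 0.57 with Tfrc RNA and −0.30 with ferritin TE. The erythroid sum was 7.30 to 72.3 CPM at ZT5 and 1.91 to 103.6 CPM at ZT12, and r was −0.88 with it taken out. Kupffer cell markers (6 of 6 listed, 231.1 to 461.4 CPM) had r = 0.04 with both. For endothelial and stellate markers (4 of 4 listed each) r with ferritin TE was 0.36 and 0.49, and −0.02 and 0.23 without the deviating liver. The 7 listed genes of the fasting response had r = 0.12 with ferritin TE and −0.26 with Tfrc RNA. Mean TE of 76 ribosomal protein genes had r = 0.05 with ferritin TE and −0.13 with Tfrc RNA, and 0.54 and −0.53 without the deviating liver. With any single one of 16 such measures taken out, r of ferritin TE with Tfrc RNA stayed between −0.88 and −0.75 over 24 livers. Without the deviating liver it stayed between −0.85 and −0.67, with −0.75 once ribosomal protein TE was taken out and −0.67 once library size was. The part of these measures in the relation was not tested beyond that.

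Between the middle of the light phase (ZT5) and lights off (ZT12), ferritin footprints fell and Tfrc mRNA rose. Averaged over the 4 genotypes, Tfrc RNA rose by 1.50 ± 0.27 on the log2 scale (SE; edgeR adjusted p = 0.000564), a 2.82-fold difference. RPF levels of Tfrc rose by 1.75 ± 0.30 (edgeR adjusted p = 0.000252), and TE of Tfrc did not pass (log2 difference 0.18 ± 0.13, edgeR adjusted p = 0.716). TE of Fth1 fell by 1.38 ± 0.24, a 2.60-fold difference (edgeR adjusted p = 0.0141). TE of Ftl1 was lower by 1.53 ± 0.35 on the log2 scale and missed the threshold (edgeR adjusted p = 0.0678). Leaving out Ireb2+/+ replicate 3 at ZT5 made it lower by 1.71 ± 0.30, which passed (edgeR adjusted p = 0.00699), as it did without Aco1-/- replicate 2 at ZT12 (edgeR adjusted p = 0.0437) and in DESeq2 (adjusted p = 0.00146). RPF levels of both ferritins fell, by 1.16 ± 0.30 for Ftl1 and 1.39 ± 0.23 for Fth1 (edgeR adjusted p = 0.00681 and 0.000231). RNA of Ftl1 rose by 0.36 ± 0.10 (edgeR adjusted p = 0.0150), and that of Fth1 was at −0.03 ± 0.08 (edgeR adjusted p = 0.860).

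Two-sided exact permutation of the times within genotypes gave p = 6.25e-05 for Tfrc RNA, 0.0001125 for Fth1 TE and 0.0009375 for Ftl1 TE, where 1.25e-05 is the smallest value possible. In all genes tested, 22.3% passed in RNA, 31.8% in RPF and 0.486% in TE in the same comparison. Of the 5 other IRE genes, TE of Alas2 fell by 0.48 ± 0.08 and that of Slc40a1 by 0.37 ± 0.07 in log2 units (edgeR adjusted p = 0.00160 and 0.00180), and TE of the other 3 did not pass. The median TE difference was −0.12 over these 5 genes and 0.011 over all genes tested. Of the 12 other iron genes, 0 passed in TE in edgeR and in DESeq2, where 1 (Hamp) had an unadjusted p below 0.05 in edgeR, as had 1005 of 10696 genes. In RNA, 2 of these 12 rose, the iron importer Slc39a14 by 0.62 ± 0.11 and the iron chaperone Pcbp2 by 0.39 ± 0.07, and 2 fell, the iron reductase Steap3 by 0.67 ± 0.12 and ceruloplasmin (Cp) by 0.20 ± 0.06 on the log2 scale (edgeR adjusted p between 3.99e-05 and 0.0184).

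Within single genotypes, fewer of these differences passed. Tfrc RNA was higher at ZT12 in all 4 genotypes, by 1.62 ± 0.52 in Aco1+/+, 1.38 ± 0.60 in Aco1-/-, 0.92 ± 0.47 in Ireb2+/+ and 2.07 ± 0.46 in Ireb2-/- livers (log2 ± SE). The value in Aco1-/- was 0.61 without replicate 1 at ZT12, and that in Ireb2+/+ was 0.52 without replicate 3 at ZT12. Only the value in Ireb2-/- passed (edgeR adjusted p = 0.0462), and it no longer did when any 1 of its 6 livers was left out (edgeR adjusted p between 0.0529 and 0.182). With the deviating Ireb2+/+ liver out of the shared fit it was 2.07 ± 0.37 and passed (edgeR adjusted p = 0.0131). The share of all genes that passed in RNA was 7.05% in Aco1+/+, 5.15% in Aco1-/-, 2.29% in Ireb2+/+ and 2.77% in Ireb2-/-. The log2 difference (ZT12 minus ZT5) in TE of Ftl1 was −1.61, −1.98, −0.35 and −2.19 in the same order, and in TE of Fth1 −2.06, −1.09, −0.69 and −1.67. Without Aco1-/- replicate 1 at ZT12 that of Fth1 in Aco1-/- was −0.67. Without replicate 3 at ZT5, the differences in Ireb2+/+ were −1.08 ± 0.53 for Ftl1 TE, −1.10 ± 0.36 for Fth1 TE and 1.41 ± 0.45 for Tfrc RNA, and did not pass either (edgeR adjusted p between 0.181 and 0.680). Other single livers moved the ferritin values there toward or past 0, to 0.31 for Ftl1 TE without replicate 2 at ZT5 and to −0.38 for Fth1 TE without replicate 3 at ZT12. In edgeR 0 of these 8 TE differences passed, where 5 had an unadjusted p below 0.05, and DESeq2 called 1, that of Fth1 in Aco1+/+ (adjusted p = 0.0384). Among all genes 0.0187, 0.150, 0.533 and 0.00935% passed in TE, and 801, 861, 879 and 483 of 10696 had an unadjusted p below 0.05 in edgeR.

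Footprints gave more calls. RPF levels of Fth1 fell by 2.00 ± 0.38 in Aco1+/+ and by 1.42 ± 0.37 in Aco1-/- livers (edgeR adjusted p = 0.0105 and 0.0321). The call in Aco1+/+ was lost without replicate 2 at ZT5 (adjusted p = 0.0519), and that in Aco1-/- without replicate 1, 2 or 3 at ZT5 or replicate 2 at ZT12 (adjusted p between 0.0580 and 0.120, differences between −1.52 and −1.31). Tfrc footprints rose by 2.17 ± 0.53 in Aco1-/- (edgeR adjusted p = 0.0273). That call was lost without any 1 of the ZT5 livers (adjusted p between 0.0761 and 0.129), and without replicate 1 at ZT12 the difference was 1.23 (adjusted p = 0.00685). The median RPF difference of the 4 erythroid markers tested was 2.30 in Aco1-/-, −1.19 in Aco1+/+, −0.38 in Ireb2+/+ and 0.060 in Ireb2-/- livers. None of these markers passed, and their part in the Tfrc difference was not tested. In Ireb2-/- livers the RPF differences were −1.56 ± 0.62 for Ftl1, −1.50 ± 0.51 for Fth1 and 2.09 ± 0.64 for Tfrc, without overlap between the times, and did not pass (edgeR adjusted p = 0.213, 0.147 and 0.109). With the deviating Ireb2+/+ liver out of the shared fit, that of Fth1 was −1.50 ± 0.30 and passed (edgeR adjusted p = 0.0273). Among all genes 6.64% passed in RPF in Aco1+/+, 12.1% in Aco1-/-, 7.53% in Ireb2+/+ and 5.73% in Ireb2-/-. In Ireb2-/- livers, ZT5 and ZT12 did not overlap in Ftl1 TE, Fth1 TE or Tfrc RNA, and the same held for Aco1+/+. With 3 livers against 3, an exact permutation test cannot go below p = 0.1. Any gene without overlap reaches that value, and the share of all genes that do so is not given here.

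The comparison of knockouts with controls asks how far ferritin translation and Tfrc mRNA depend on each IRP. At ZT5, loss of IRP2 went with higher TE of Ftl1 by 2.30 ± 0.71 and of Fth1 by 1.52 ± 0.43 on the log2 scale, 4.92-fold and 2.86-fold, without overlap (exact permutation p = 0.1, the smallest possible). Neither passed over all genes (edgeR adjusted p = 0.635 and 0.599). With Ireb2+/+ replicate 3 left out, the differences were 1.55 ± 0.48 and 1.12 ± 0.35 (edgeR adjusted p = 0.820 and 0.824). At ZT12 they were 0.46 ± 0.76 and 0.54 ± 0.44, the groups overlapped, and with 1 liver left out they ran from 0.062 to 0.98 and from 0.24 to 0.80. Tfrc RNA was lower by 0.53 ± 0.50 at ZT5, and by 0.0080 without the deviating liver (edgeR adjusted p = 0.912 and 0.9998). At ZT12 it was higher by 0.63 ± 0.42 (edgeR adjusted p = 0.9998), and by 0.31 without Ireb2+/+ replicate 2 and 1.02 without replicate 3.

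Loss of IRP1 went with TE of Ftl1 higher by 0.61 ± 0.64 at ZT5 (0.15 without Aco1+/+ replicate 1 and 1.12 without replicate 2) and 0.24 ± 0.66 at ZT12 (−0.34 without Aco1-/- replicate 2), and with TE of Fth1 higher by 0.47 ± 0.52 and 1.44 ± 0.54. The last is a 2.71-fold difference (edgeR adjusted p = 0.671), its groups overlapped, and it was 0.96 without Aco1-/- replicate 3. At ZT12 RPF levels of Fth1 were higher by 0.99 ± 0.37 and its RNA was lower by 0.50 ± 0.16 (edgeR adjusted p = 0.319 and 0.472). The ZT5 value of Fth1 was 0.30 without Aco1-/- replicate 2. Tfrc RNA was lower by 0.79 ± 0.61 at ZT5, without overlap, and by 1.03 ± 0.52 at ZT12 (edgeR adjusted p = 1 and 0.698). The ZT12 value depended on single Aco1-/- livers, since it was −1.80 and passed without replicate 1 (edgeR adjusted p = 0.000177) and was −0.57 without replicate 3. The median RNA difference of the 4 erythroid markers tested was −1.84 at ZT5 and 0.71 at ZT12, and none of these markers passed.

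In edgeR 0 of these 8 ferritin TE differences and 0 of the 4 Tfrc RNA differences between genotypes passed, where 3 and 0 had an unadjusted p below 0.05, and DESeq2 called none of them either. Few genes passed in these comparisons. In TE, 0.00935% of all genes passed for Aco1 at ZT5, 0.0935% at ZT12, 0.00935% for Ireb2 at ZT5 and 0.0% at ZT12. In RNA the shares were 0.0%, 0.00935%, 0.00935% and 0.0187% in the same order. An unadjusted edgeR p below 0.05 was held by 272, 718, 750 and 381 of 10696 genes in TE and by 399, 819, 603 and 450 in RNA. Differences between the genotype effects at the 2 timepoints did not pass for the 3 genes in either line (edgeR adjusted p between 0.949 and 0.993 in TE of the ferritins), and 0.0280% of all genes passed in TE in the Aco1 line and 0.0% in the Ireb2 line. For Ftl1 in the Ireb2 line this difference was −1.84 ± 1.04 on the log2 scale, and −1.09 ± 0.70 without the deviating liver. Of the other IRE genes, TE of Slc40a1 rose in Aco1-/- at ZT12 by 0.74 ± 0.15 (edgeR adjusted p = 0.0171), and the median over the 5 was 0.43 against 0.0078 over all genes tested.

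**Figure D3:**
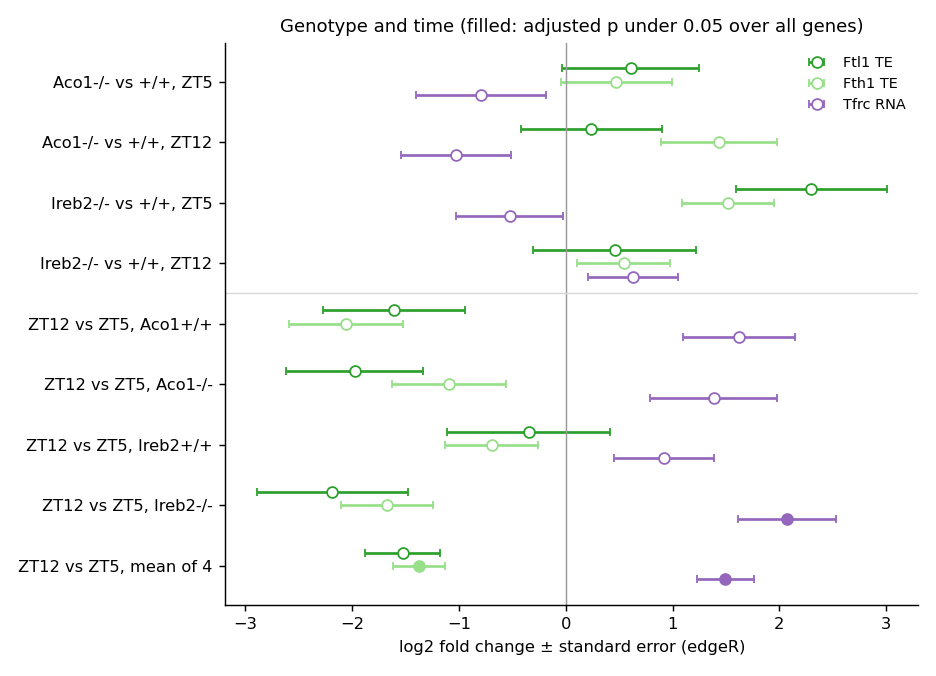
Log2 fold change ± SE (x axis, edgeR) of Ftl1 TE, Fth1 TE and Tfrc RNA for knockout against control at each time (upper rows) and ZT12 against ZT5 in each genotype and averaged over the 4 (lower rows); filled points have an adjusted p under 0.05 over all genes. Ferritin TE lies to the left and Tfrc RNA to the right of 0 in all time rows, and the filled points are Tfrc RNA in Ireb2-/- and in the mean of 4 and Fth1 TE in the mean of 4.

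In the untranslated regions, averaged over genotypes, footprints in the 5′ UTR of Ftl1 fell by 1.60 ± 0.20 at ZT12 in log2 units (edgeR adjusted p = 5.75e-07) and RNA counts in the 3′ UTR of Tfrc rose by 1.53 ± 0.29 (edgeR adjusted p = 0.000912). Of the genes tested on those columns, 17.0% and 22.1% passed. Footprints in the 5′ UTR of Fth1 were at −0.23 ± 0.17 (edgeR adjusted p = 0.380), and here the genotypes parted. Between the times they rose by 2.44 ± 0.31 in Aco1-/- (edgeR adjusted p = 7.61e-06) and fell by 1.66 ± 0.39 in Ireb2-/- livers (edgeR adjusted p = 0.0296). In Aco1+/+ and Ireb2+/+ livers the differences were −1.04 ± 0.32 and −0.66 ± 0.33 and did not pass. In Aco1-/- livers at ZT12 there were 851, 623 and 222 such footprints in replicates 1, 2 and 3, against 44, 81 and 98 in Aco1+/+ livers, without overlap. At ZT5 the counts were 202, 67 and 62 in Aco1-/- and 155, 158 and 36 in Aco1+/+. Scaled by CDS counts to CPM, the ZT12 means were 86.4 ± 40.1 and 9.47 ± 3.30 (SD, n = 3). In the fit, which was scaled by the 5′ UTR column itself, the rise was 3.43 ± 0.33 on the log2 scale (edgeR adjusted p = 1.93e-08), while 6.36% of 3175 genes tested passed. RNA counts in the 5′ UTR of Fth1 were 53.6 ± 18.5 and 46.0 ± 17.1 CPM in the same groups. The difference between the genotype effects at ZT12 and ZT5 was 3.48 ± 0.44 (edgeR adjusted p = 1.85e-05), where 0.504% of genes passed. In the 3 Aco1-/- livers the 5′ UTR footprints did not follow the CDS footprints, since replicate 1 had the most of the former and the fewest of the latter. Over all 24 livers, within groups, the Fth1 columns had r = 0.45 (rho = 0.48). That value was 0.25 without Ireb2+/+ replicate 3 at ZT5 and 0.67 without Aco1-/- replicate 3 at ZT12, and it was 0.96 in control livers and 0.01 in knockout livers.

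**Figure D4:**
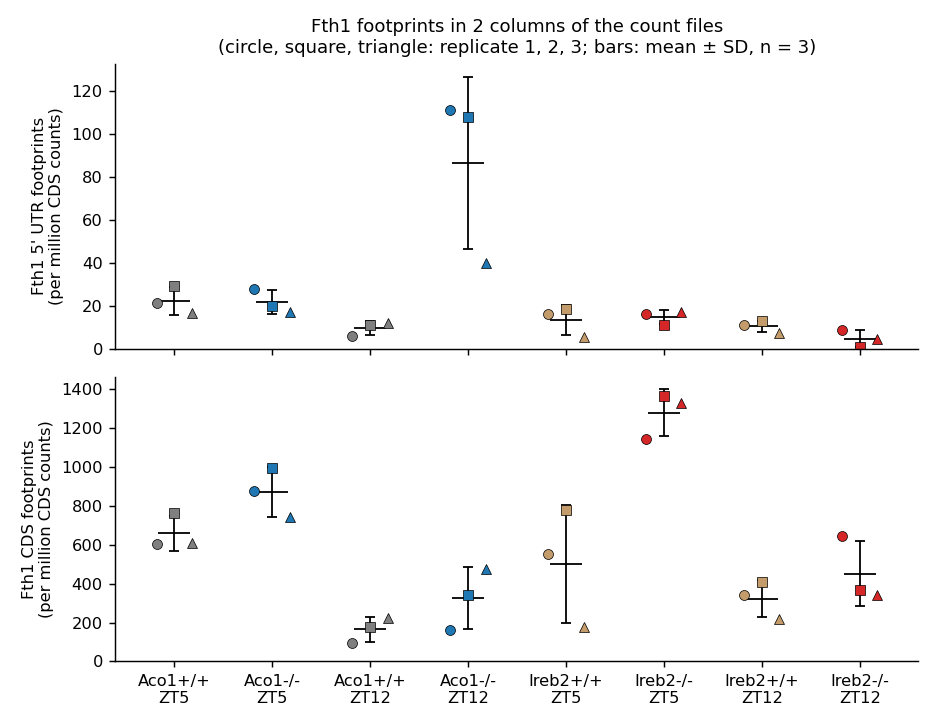
Fth1 footprints (CPM, scaled by CDS counts) in the 5′ UTR column (top) and the CDS column (bottom) in each of 24 livers; circle, square and triangle are replicates 1, 2 and 3, and bars are the mean ± SD of 3 livers. Aco1-/- livers at ZT12 reach 86.4 ± 40.1 in the top panel, where all other groups have means between 4.70 and 22.4, and are not raised above the ZT5 groups in the bottom panel.

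Pseudogenes of the ferritins could draw reads from these genes. Ftl1-ps1 had 1 CDS count over all RNA libraries, but 7347 RNA counts in the 3′ UTR column, and 4 other annotated copies (Ftl1-ps2, Ftl2-ps, Fth-ps2 and Fth-ps3) had 0 counts throughout. How reads that match several copies were assigned is not given in the sources used here, so the level of Ftl1, above all in its UTRs, is uncertain to that extent.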

How the data were processed

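RPF and total RNA libraries of 24 livers were analysed as 48 libraries from 77 deposited runs, and the 2 runs of 29 libraries were summed. The authors trimmed adapters (cutadapt 3.5), filtered reads by quality and length, removed rRNA and tRNA reads with Bowtie2, mapped the rest with STAR 2.70f to the mouse genome (GRCm38, Ensembl release 100) and deposited raw counts per gene, not normalized. The counting tool, its strand setting and the names of the count columns are not given in the sources used here. From the values the columns were read as 5′ UTR, CDS, 3′ UTR, 1 that is 0 throughout and 1 not identified, and the CDS column was used.

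Genes of low count were dropped (filterByExpr with min.count 10 and min.total.count 15), and upper-quartile factors were computed over all 48 libraries. For fits of a UTR column, both steps used the counts of that column in the libraries of its assay. edgeR's robust quasi-likelihood test was fitted per line over its 4 groups, or over all 24 livers for the time effect averaged over genotypes. TE was tested as the difference between assays in a single fit of RPF and RNA, blocked by mouse. RPF and RNA deviations of one liver had r between 0.12 and 0.57 (median 0.21), against a median of −0.11 with other livers of its group. By this measure 24 of 24 livers matched their own library best. Adjusted p-values (Benjamini-Hochberg, all genes of a fit) below 0.05 were called. They measure the spread between the mice of these groups. The SE follows from the log2 fold change and F. Levels in single livers are log2 with a prior count of 0.5. Within-group correlations used deviations from group means. All 3 genes had counts in every library. Gene coordinates were taken from the reference gene table.

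The members and the gene lists were chosen with earlier results of these data known. Genes named are the 3 genes, those of the iron lists that passed or that a result turns on, annotated ferritin copies, and the 5 most and 3 least similar genes, without predicted genes and pseudogenes. Alternatives were TMM normalization, DESeq2, no filter, the first run alone, all count columns, the replicate number as a block, unpaired libraries, a prior count of 5, only the livers compared, and each liver left out. The UTR columns, the removal of single library measures and the separate listing of Ireb2+/+ replicate 3 at ZT5 were added after the data were seen. Some genes of these lists and of the most similar genes are not reported here. Scripts were tested on simulated data. Fits were made in edgeR 4.0.16 with limma 3.58.1 (R 4.3.3), alternatives in DESeq2 1.42.0, and descriptions and plots in Python 3.11.15 (pandas 2.3.3, NumPy 2.4.6, Matplotlib 3.10.9, SciPy 1.17.1).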

Additional observations from a re-analysis of the deposited data

Results flagged for a closer look

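The effect of losing IRP1 on Fth1 footprints in the 5′ UTR differed between the timepoints. The knockout difference at ZT12 minus that at ZT5 was 3.48 ± 0.44 on the log2 scale (SE; edgeR adjusted p = 1.85e-05 over the 3175 genes tested on that column). The knockout difference was 3.43 at ZT12 and −0.04 at ZT5, and all 3 Aco1-/- livers at ZT12, with 222 to 851 counts, were above all 3 controls, with 44 to 98. The value stayed between 3.32 and 3.76 when each Aco1 liver was left out in turn, and was 3.58 with TMM normalization and 3.60 in DESeq2. This contrast was singled out after the counts had been seen, and what lies behind it was not tested.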

How the results depend on the processing

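Of 894 recomputed values, 546 left out 1 liver and 348 used other settings, of which 515 and 322 kept direction and side of the threshold. DESeq2 called Fth1 TE (−2.08) and Tfrc RNA (1.68) between times in Aco1+/+, and Ftl1 TE (−1.57) averaged over genotypes. All count columns together also called the last (−1.63), but not Tfrc RNA in Ireb2-/- between times (1.81), which was lost too with no filter (2.07) and in the first run alone (1.84). The difference in knockout effects between times in the Aco1 line turned sign for Ftl1 TE in the first run alone (0.11) and for Tfrc RNA in that run (0.27) and DESeq2 (0.0025), and Fth1 RNA averaged over genotypes turned with TMM (0.0069) and DESeq2 (0.0022), none of them past the threshold. The within-group r was −0.77 in the Aco1 line, −0.96 in the Ireb2 line and −0.68 with 3′ UTR counts of Tfrc. Replicate numbers are not said to link mice of different groups, and same-numbered livers did not deviate together (mean r between −0.0078 and 0.026 per assay and line). With the number as a replicate block, Ftl1 TE averaged over genotypes was −1.52 and passed, Tfrc RNA in Aco1+/+ between times was 1.61 and passed, and the within-group r was −0.75.

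Leaving out each liver in turn gave ranges over which some values changed sign or call. Between genotypes in the Aco1 line at ZT12, Ftl1 TE ran from −0.34 to 0.73 and Tfrc RNA from −1.80 to −0.57. The difference in knockout effects between times ran from −0.95 to 0.12 for Ftl1 TE and from −1.0 to 0.24 for Tfrc RNA. In Ireb2+/+ between times Ftl1 TE ran from −1.08 to 0.31 and Ftl1 RPF from −1.09 to 0.23, and in Ireb2-/- Tfrc RNA ran from 1.81 to 2.29. Averaged over genotypes Ftl1 TE ran from −1.71 to −1.36 and Fth1 RNA from −0.070 to 0.017. The Ftl1 TE difference in knockout effects in the Ireb2 line ran from −2.49 to −1.09. The causes were not tested. Tfrc RNA, with as few as 14 counts in a library, limits the precision of single livers, and with 3 livers a group single comparisons of genotypes have wide errors.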
